A study of Canis lupus familiaris and Felis catus with 4 samples.

Results

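The miRNAs described here are the fibrosis-linked miR-21, miR-22 and miR-29 of urinary exosomes (UExos), the small vesicles that cells along the urinary tract shed into urine. They were taken by name from the deposited table of mature miRNAs, as mmu-miR-21a-5p, mmu-miR-21a-3p, mmu-miR-22-3p, mmu-miR-22-5p, mmu-miR-29a-3p, mmu-miR-29b-3p and mmu-miR-29c-3p (mmu marks the mouse annotation and is mostly left off below), with the genomic copies of a name summed. This gave 7 of 1898 mature miRNA names, held in 8 entries, and 6 of the 7 had a read. Small RNA was sequenced as 1 pooled library for each of 4 groups, which were 45 cats with kidney disease (KD), 43 cats with normal renal function (NR), 47 KD dogs and 37 NR dogs. The cats were veterinary hospital patients sorted by serum creatinine and urea nitrogen and by clinical diagnosis, the KD cats were older at the median than the NR cats, and the ages of the dogs and their criteria were not used here. No agent or allele was applied to any group. The comparisons asked how the miRNAs of KD urine differ from those of NR urine in each species. Since each group is 1 library made from many animals, differences between animals could not be seen, no test was run, and every 95% interval given here (exact binomial for a share, exact conditional for a ratio of 2 counts) covers counting error only. The mature miRNA reads numbered 23784 in KD cats, 18704 in NR cats, 63355 in KD dogs and 20878 in NR dogs.

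A mature miRNA guides the Argonaute complex to messenger RNAs through its seed, bases 2 to 8 from the 5′ end, and lowers the output of those it pairs with. In the kidney, miR-21 is the best known profibrotic miRNA: it is induced by TGF-β, the main cytokine of scarring, and its known targets include SMAD7, a brake on TGF-β signalling, and PPARα, a regulator of fatty acid oxidation. miR-29 is its counterpart, since its targets include collagen, fibrillin and elastin messages, and TGF-β signalling lowers its level in mouse and human kidney cells. miR-22 is a broadly expressed miRNA that is known to target BMP receptor or ligand messages in rodents.

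The mature sequences are shown because the seed decides which messages a miRNA can reach, and because cat and dog reads were counted only where they aligned to these mouse sequences. They are the deposited mouse annotation's sequences, written as RNA from 5′ to 3′ with the seed in capitals.
mmu-miR-21a-5p: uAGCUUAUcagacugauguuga
mmu-miR-21a-3p: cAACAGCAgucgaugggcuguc
mmu-miR-22-3p: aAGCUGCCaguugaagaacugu
mmu-miR-22-5p: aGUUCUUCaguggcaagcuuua
mmu-miR-29a-3p: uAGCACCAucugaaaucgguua
mmu-miR-29b-3p: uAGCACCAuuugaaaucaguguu
mmu-miR-29c-3p: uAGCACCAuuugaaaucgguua
The 3 miR-29 members share 1 seed, while miR-21 and miR-22 have seeds of their own, so the group has in common a link to fibrosis and no target sequence. Within miR-29, with positions counted from 1 at the 5′ end, miR-29c-3p differs from miR-29a-3p by the single substitution C10U. Between miR-29a-3p and miR-29b-3p the substitutions were C10U, G18A, U21G and A22U over the 22 bases they can be compared on. A short or mismatched read may therefore be hard to place within the family, and the split among its members is uncertain.

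On the mouse genome (mm10) the members come from the hairpins of miR-21a and miR-22 and from 4 hairpins of miR-29. miR-21a lies on the minus strand of chromosome 11, its 5p arm from 86584120 to 86584141 and its 3p arm from 86584082 to 86584103, at the end of the protein-coding gene Vmp1. miR-22 lies on the plus strand of chromosome 11, its 5p arm from 75463734 to 75463755 and its 3p arm from 75463772 to 75463793, in an exon of its non-coding host gene. miR-29a-3p (31062673 to 31062694) and a copy of miR-29b-3p (31063025 to 31063047) lie side by side on the minus strand of chromosome 6. The other copy of miR-29b-3p (195037091 to 195037113) lies beside miR-29c-3p (195037600 to 195037621) on the plus strand of chromosome 1. The placing of miR-21a at Vmp1 and of miR-22 in its host gene is background, since the deposited table names no host. In the dog gene annotation (UU_Cfam_GSD_1.0), MIR29A neighbours MIR29B-1 and MIR29C-2 neighbours MIR29B-2, so the same pairs of neighbours exist in dogs, which carry a further gene, MIR29C-1.

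The libraries carried the miRNAs of kidney tubule, and the shares of other cell types' miRNAs differed between pools. The 6 tubule markers, led by miR-10b-5p, held 75.9% of the reads in KD cats, against 51.0% in NR cats, and 74.5% in KD dogs, against 80.2% in NR dogs, with miR-194-5p at 0 in KD cats alone. Most of this was miR-10a-5p and miR-10b-5p, and the other 4 (miR-30a-5p, miR-192-5p, miR-194-5p and miR-204-5p) held 2.57% in KD cats, against 6.22% in NR cats, and 4.02% in KD dogs, against 5.24% in NR dogs. Red blood cell miRNAs held 12.7% in KD cats, against 3.29% in NR cats, and 9.88% in KD dogs, against 1.45% in NR dogs, nearly all of it as miR-486-5p and miR-3107-5p. The study treats miR-3107 and miR-486a as a single mature miRNA. miR-451a, the other red cell miRNA with more than 1 read, had 1 read in KD cats, against 32 in NR cats, and 20 in KD dogs, against 8 in NR dogs. Its share was 0.00420% in KD cats, against 0.171% in NR cats, and 0.0316% in KD dogs, against 0.0383% in NR dogs. Unlike miR-486-5p and miR-3107-5p, it thus had no larger share in KD in either species. The 5 epithelial markers held 0.404% in KD cats, against 0.449% in NR cats, and 0.860% in KD dogs, against 0.829% in NR dogs. On normalized values they summed to 226 in KD cats, against 97.3 in NR cats, and to 289 in KD dogs, against 119 in NR dogs. Of the 4 smooth muscle and fibroblast markers in the table, miR-143-3p was present and the other 3 had no read in any library.

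miR-21a-5p and miR-22-3p were among the most abundant miRNAs of every library, and the other 5 members were scarce. Together the 7 members held 1.29% of the mature miRNA reads in KD cats (95% interval 1.15 to 1.44%), against 10.1% in NR cats (9.69 to 10.6%). In dogs they held 2.93% in KD (2.80 to 3.06%), against 2.57% in NR (2.36 to 2.79%). The share was thus far smaller in KD cats than in NR cats, and in dogs it was close between the pools. miR-21a-5p ranked 10 among mature miRNAs in KD cats, against 6 in NR cats, and 6 in KD dogs, against 10 in NR dogs. miR-22-3p ranked 8 in KD cats, against 3 in NR cats, and 9 in KD dogs, against 7 in NR dogs. No other member ranked above 39 in any library.

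**Figure D1:**
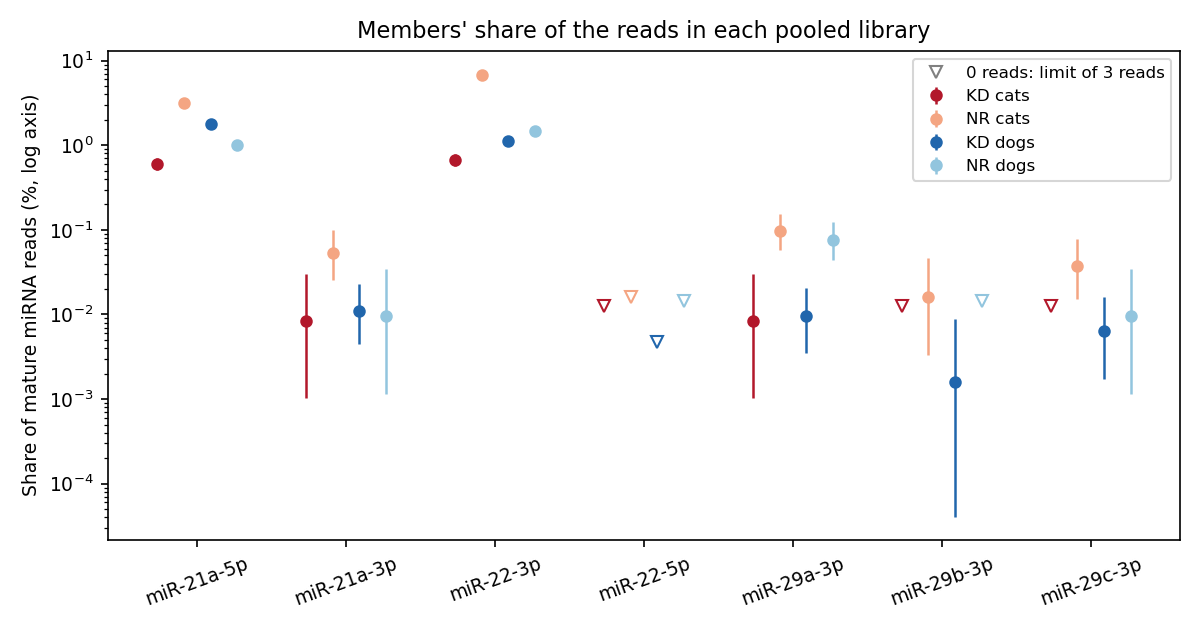
Share of the mature miRNA reads (percent, log axis) for each of the 7 members in the 4 pooled libraries, with 95% exact binomial intervals that cover counting error only. Open triangles mark 0 reads at the limit of 3 reads; miR-21a-5p and miR-22-3p lie between 0.601% and 6.78%, and every other value is below 0.1%.

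miR-21a-5p, the profibrotic guide strand, took a smaller share of the reads in KD cats and a larger one in KD dogs. mmu-miR-21a-5p had 143 reads in KD cats, against 585 in NR cats, and 1120 reads in KD dogs, against 211 in NR dogs. These were 0.601% of the reads (0.507 to 0.708%) in KD cats, against 3.13% (2.88 to 3.39%) in NR cats, and 1.77% (1.67 to 1.87%) in KD dogs, against 1.01% (0.879 to 1.16%) in NR dogs. NR cats had the largest share and KD cats the smallest, and none of the 4 intervals overlapped. The deposited normalized value, which equals the read count times 1 factor per library (2.36 in KD cats, 1.16 in NR cats, 0.531 in KD dogs and 0.689 in NR dogs), put miR-21a-5p at 337 in KD cats, against 677 in NR cats. In dogs it was 595 in KD, against 145 in NR. On these values it was 2.01-fold lower in KD cats than in NR cats (log2 fold change -1.01, 95% interval -1.28 to -0.74) and 4.09-fold higher in KD dogs than in NR dogs (2.03, 1.82 to 2.25). By PCR in single cats, the study found no significant change of raw miR-21a in KD. Normalized to urinary creatinine or to total urinary RNA, miR-21a was significantly higher in its KD cats, unlike in the cat pools here.

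Against all mature miRNAs with at least 10 reads over both libraries, the change of miR-21a-5p was moderate in cats and near the top in dogs. In cats 25 of 81 had a lower log2 fold change and 55 a higher one, and in dogs 77 of 92 had a lower one and 14 a higher one. The median log2 fold change of all was -0.34 in cats and 0.95 in dogs, so that miR-21a-5p stood at -0.67 relative to the median in cats and at 1.09 in dogs. The median itself moved with the scaling, from -1.71 to 0.19 in cats and from -0.52 to 1.32 in dogs, while places in the order and distances to the median did not. The study selects on read numbers, and its cut-offs were put here on the normalized values instead (over 150 in the higher library and a fold over 2, with the criterion of kidney expression left out). By these cut-offs miR-21a-5p was past the limit in both species. In cats it was 1 of 8 miRNAs past the cut-offs in the lower direction, which is 34.8% of the 23 that had such a value, and in dogs 1 of 8 in the higher direction, 50% of 16. The direction was the same under the 7 ways of scaling computed, from -2.38 to -0.48 in cats and from 0.57 to 2.41 in dogs, and each interval left out 0, but the 2-fold limit was passed under 5 of the 7 in each species.

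miRNAs of white blood cells, in which miR-21 is also abundant, moved the same way. The 6 leukocyte markers (miR-142-3p, miR-142-5p, miR-223-3p, miR-150-5p, miR-155-5p and miR-146a-5p) summed to 125 reads in KD cats, against 680 in NR cats, and to 231 in KD dogs, against 17 in NR dogs. In normalized values this was 295 in KD cats, against 787 in NR cats, and 123 in KD dogs, against 11.7 in NR dogs. miR-142-3p, miR-223-3p and miR-155-5p were at 0 in KD cats, and every marker had a read in NR cats. In NR dogs miR-142-5p had 6 reads, miR-146a-5p had 11 and the other 4 were at 0. The part of white blood cells in the result for miR-21a-5p was not tested, and in pooled urine fewer vesicles of a cell type and less miRNA in each vesicle cannot be told apart.

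miR-22-3p was the member with most reads in NR cats, and its value in KD cats was far lower. mmu-miR-22-3p had 159 reads in KD cats, against 1269 in NR cats, and 717 reads in KD dogs, against 305 in NR dogs. Its share was 0.669% (0.569 to 0.780%) in KD cats, against 6.78% (6.43 to 7.15%) in NR cats. In dogs it was 1.13% (1.05 to 1.22%) in KD, against 1.46% (1.30 to 1.63%) in NR. NR cats thus stood well above the other 3 libraries, which lay between 0.669% and 1.46%. The normalized value was 375 in KD cats, against 1469 in NR cats, a 3.92-fold lower level (log2 fold change -1.97, -2.22 to -1.73). It was 381 in KD dogs, against 210 in NR dogs, a 1.81-fold higher level (0.86, 0.66 to 1.06).

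In cats 11 of the 81 miRNAs had a lower log2 fold change than miR-22-3p and 69 a higher one. It was another of the 8 past the study's cut-offs in the lower direction, and it was lower in KD cats by over 2-fold under all 7 scalings (-3.34 to -1.44). In dogs it lay near the middle, with 40 of 92 lower and 51 higher, at -0.09 relative to the median. Its direction in dogs turned with the scaling, from -0.61 to 1.23, and was above 0 under 4 of the 7. Its share of the reads was lower in KD dogs while its normalized value was higher, so no direction can be given for it in dogs.

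**Figure D2:**
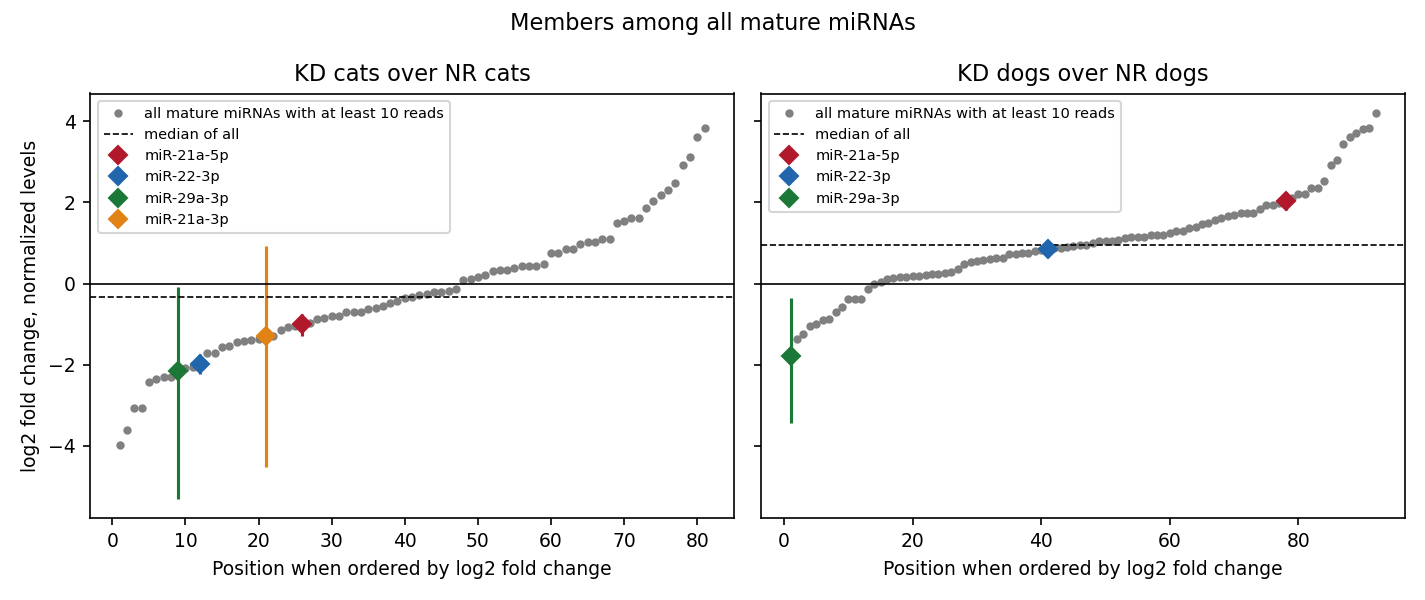
Log2 fold change of normalized levels (vertical axis) of all mature miRNAs with at least 10 reads over both libraries, in order (horizontal axis), for KD over NR cats (81 miRNAs, left) and KD over NR dogs (92 miRNAs, right). Diamonds are members with their 95% counting intervals, the dashed line is the median of all, and miR-29a-3p is the lowest point in dogs while miR-21a-5p stands at 2.03.

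The ratio of miR-21a-5p to miR-22-3p was higher in KD than in NR in both species. A ratio of 2 miRNAs inside 1 library does not depend on how libraries are scaled. It was 0.899 (0.712 to 1.13) in KD cats, against 0.461 (0.417 to 0.509) in NR cats, and 1.56 (1.42 to 1.72) in KD dogs, against 0.692 (0.578 to 0.827) in NR dogs. Within each species the intervals did not overlap. The ratio was 1.95-fold higher in KD cats (95% interval 1.51 to 2.51) and 2.26-fold higher in KD dogs (1.84 to 2.77). In cats both miRNAs were lower in KD under each of the 7 scalings, miR-22-3p by more. In dogs miR-21a-5p was higher under each, and miR-22-3p had no set direction. Cats had the lower ratio in each state, 0.576-fold of the dog value in KD (0.447 to 0.741) and 0.666-fold in NR (0.543 to 0.819). Summing both arms of each hairpin gave 1.94 in cats and 2.25 in dogs.

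The ratio of miR-21a-5p to other miRNAs was higher in KD for most of them in dogs but for a minority in cats. Of 54 other miRNAs with at least 50 reads over the 4 libraries and a read in each, the ratio was higher in KD cats for 17, higher in KD dogs for 46 and higher in both species for 14. For 32 it was lower in KD cats and higher in KD dogs, for 3 the reverse, and for 5 lower in both. With 46 of 54 higher in dogs, most of any 17 would be among them, so the 14 are no sign of a shared trait. miR-22-3p was among the 14. For 4 of these 14 (miR-22-3p, miR-16-5p, miR-181a-5p and miR-378a-3p) both intervals lay above 1. For miR-378a-3p, which is encoded in a gene of energy metabolism, the ratio was 2.53-fold higher in KD cats (1.76 to 3.69) and 6.62-fold higher in KD dogs (4.92 to 8.95). For miR-16-5p, a miRNA that restrains the cell cycle, it was 2.44-fold higher in KD cats (1.36 to 4.72) and 1.84-fold higher in KD dogs (1.09 to 3.02). With miR-22-3p on top, the ratio was higher in KD in both species for 2 of its 54 others and lower in both for 29.

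The antifibrotic miR-29 members were scarce, and their summed reads were fewer in KD in both species, in dogs by read count through miR-29a-3p alone. Their 3p arms summed to 2 reads in KD cats, against 28 in NR cats, and to 11 in KD dogs, against 18 in NR dogs, although the KD library was the deeper of its pair in each species. Their share was 0.00841% (0.00102 to 0.0304%) in KD cats, against 0.150% (0.0995 to 0.216%) in NR cats, and 0.0174% (0.00867 to 0.0311%) in KD dogs, against 0.0862% (0.0511 to 0.136%) in NR dogs. Within each species the intervals of the shares did not overlap, while the 2 NR pools overlapped each other, as did the 2 KD pools. The normalized sum was 4.71 in KD cats, against 32.4 in NR cats, and 5.84 in KD dogs, against 12.4 in NR dogs. Its log2 fold change was -2.78 in cats (-5.90 to -0.79) and -1.09 in dogs (-2.32 to 0.07), where the interval holds 0. Under the 7 scalings the sum was lower in KD throughout, from -4.15 to -2.25 in cats and from -2.55 to -0.71 in dogs, with 0 outside the interval under 7 in cats and 5 in dogs. The scalings of this sum were added after the data were seen.

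miR-29a-3p carried most of these reads. mmu-miR-29a-3p had 2 reads in KD cats, against 18 in NR cats, and 6 in KD dogs, against 16 in NR dogs. Both KD pools were lower than both NR pools as a share of reads, at 0.00841% in KD cats and 0.00947% in KD dogs, against 0.0962% in NR cats and 0.0766% in NR dogs. The log2 fold change was -2.14 in cats (-5.30 to -0.08), where 8 of 81 miRNAs were lower and 72 higher. In dogs it was -1.79 (-3.43 to -0.36), and 0 of 92 were lower, so it had the lowest change of all miRNAs with at least 10 reads there, at -2.74 relative to the median. Such an order does not depend on the scaling, but it does depend on counting error. The interval of miR-29a-3p in dogs, from 6 and 16 reads, holds the changes of other miRNAs, so its last place is not certain. Over 2-fold lower values were found for 32.1% of the 81 miRNAs in cats and 4.35% of the 92 in dogs on the deposited scaling. On shares of reads it was 66.7% in cats and 23.9% in dogs.

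miR-29c-3p had 0 reads in KD cats, against 7 in NR cats, and 4 in KD dogs, against 2 in NR dogs. A count of 0 in KD cats allows up to 0.0126% of the reads by the limit of 3 reads, and up to 0.0155% by the exact interval, against 0.0374% (0.0150 to 0.0771%) in NR cats, so the intervals touch. On normalized values the limit of 3 reads puts KD cats at a log2 fold change of -0.20 or below, and a difference was not detectable at this depth. In dogs its values did not differ beyond their counting intervals, with a log2 fold change of 0.62 (-2.18 to 4.09). miR-29b-3p had 0 reads in KD cats, against 3 in NR cats, and 1 in KD dogs, against 0 in NR dogs, too few for a fold. Over the 4 libraries miR-29a-3p held 71.2% of the 59 reads of the family (57.9 to 82.2%), miR-29c-3p 22.0% (12.3 to 34.7%) and miR-29b-3p 6.78% (1.88 to 16.5%). The share of miR-29a-3p in the family was 54.5% in KD dogs (23.4 to 83.3%), against 88.9% in NR dogs (65.3 to 98.6%), and these intervals overlap.

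The balance of profibrotic miR-21a-5p to antifibrotic miR-29 was higher in both KD pools, and in dogs beyond counting error. The ratio of reads was 71.5 (19.4 to 596) in KD cats, against 20.9 (14.3 to 31.7) in NR cats. It was 102 (56.7 to 205) in KD dogs, against 11.7 (7.24 to 20.2) in NR dogs. The KD value was 3.42-fold higher in cats, with an interval of 0.845 to 30.0 that holds 1 and rests on 2 miR-29 reads in KD cats. In dogs it was 8.66-fold higher (3.81 to 20.6). With miR-29a-3p alone below the line, the change was 2.20-fold in cats (0.517 to 19.8) and 14.1-fold in dogs (5.17 to 44.6). The ratio of miR-22-3p to miR-29 was 79.5 in KD cats (21.6 to 662), against 45.3 in NR cats (31.2 to 68.5), and 65.2 in KD dogs (36.2 to 131), against 16.9 in NR dogs (10.5 to 28.98). It was 1.75-fold higher in KD cats (0.435 to 15.3) and 3.84-fold higher in KD dogs (1.69 to 9.11), so in dogs miR-29 was lower relative to both abundant members.

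**Figure D3:**
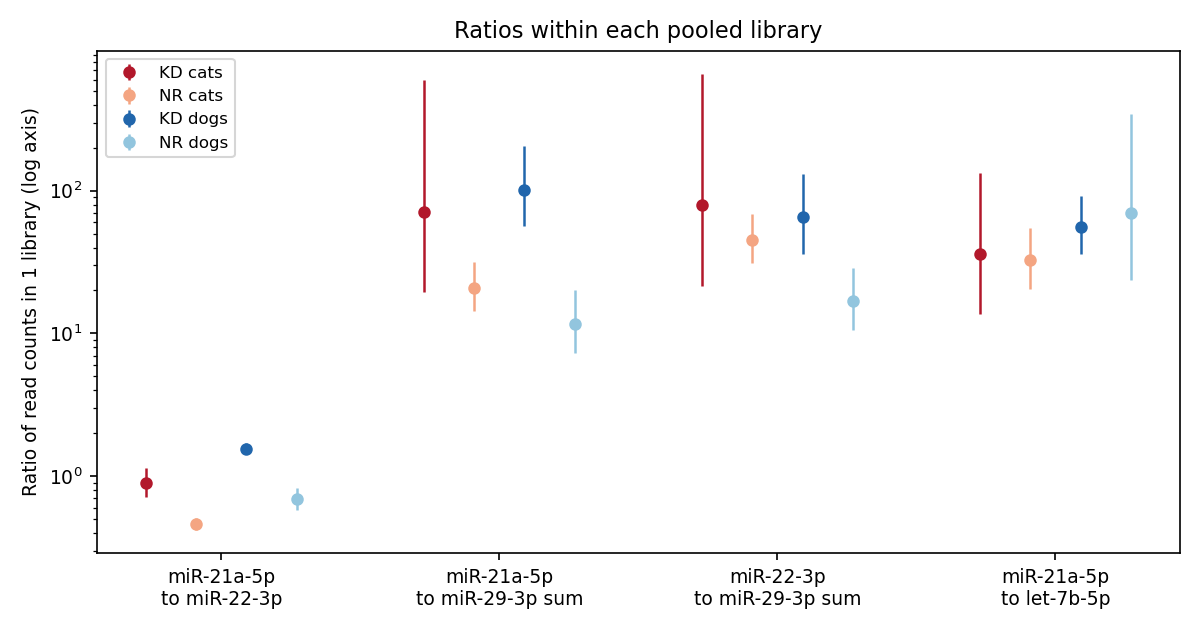
Ratio of the read counts of 2 miRNAs inside each library (log axis), with 95% exact intervals that cover counting error only, for KD cats, NR cats, KD dogs and NR dogs. The ratio of miR-21a-5p to miR-22-3p is 0.899 in KD cats, against 0.461 in NR cats, and 1.56 in KD dogs, against 0.692 in NR dogs; the wide bars of the miR-29 ratios in KD cats rest on 2 reads.

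The passenger arms, the strands usually discarded when the guide is loaded, were nearly absent. miR-21a-3p had 2 reads in KD cats, against 10 in NR cats, and 7 in KD dogs, against 2 in NR dogs. As a share of both arms of miR-21a this was 1.38% in KD cats (0.167 to 4.89%), against 1.68% in NR cats (0.809 to 3.07%), and 0.621% in KD dogs (0.2501 to 1.28%), against 0.939% in NR dogs (0.114 to 3.35%). All 4 intervals overlapped, so a shift in arm use was not detectable at this depth. miR-22-5p had no read in any library. Given 0 of 2450 reads of miR-22 over the 4 libraries, up to 0.122% could come from this arm, which is below the 1.01% of miR-21a-3p among 2080 reads (0.626 to 1.54%). The limit was 1.89% in KD cats, where 159 reads were counted, against 0.236% in NR cats, and 0.418% in KD dogs, against 0.984% in NR dogs. Of the 5p arms of miR-29, miR-29c-5p had 2 reads in NR cats and none elsewhere, and the others had none.

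Among the miRNAs listed as linked to fibrosis, most had lower normalized values in KD cats and higher ones in KD dogs. Of all miRNAs, 47 of 81 were lower in KD cats and 78 of 92 were higher in KD dogs, but this direction turns with the scaling. On shares of reads most miRNAs were lower in KD in both species, with a median log2 fold change of -1.71 in cats and -0.28 in dogs. The profibrotic list held 15 names, of which 7 had a read and 4 had at least 10 reads in each species' pair of libraries. In cats 0 of the 4 were over 2-fold higher and 3 were over 2-fold lower, with a median log2 fold change of -1.49, against 21% higher, 32.1% lower and a median of -0.34 over all 81. In dogs 1 of 4 was over 2-fold higher and 0 lower, with a median of 0.88, against 47.8% higher, 4.35% lower and a median of 0.95 over all 92. These counts include miR-21a-5p, the higher one in dogs, and miR-22-3p. Without both, 2 miRNAs were left in each species. In cats 0 of them were over 2-fold higher and 1 was lower, with a median of -1.96. In dogs it was 0 higher and 0 lower, with a median of 0.54. Besides miR-21a-5p and miR-22-3p, miR-150-5p, which is best known from lymphocytes, had 1 read in KD cats, against 17 in NR cats. miR-192-5p, a tubule miRNA that TGF-β controls, had 19 reads in KD cats, against 70 in NR cats (log2 fold change -0.86), and 737 in KD dogs, against 304 in NR dogs (0.90). miR-215-5p, which shares its seed with miR-192-5p, had 5 reads in KD cats, against 3 in NR cats, and 19 in KD dogs, against 13 in NR dogs. On shares of reads the log2 fold change of miR-192-5p was -2.23 in cats and -0.32 in dogs. That of miR-215-5p was 0.39 in cats and -1.05 in dogs, from few reads. miR-214-3p, miR-199a-3p and miR-199a-5p, miRNAs of fibroblasts and other mesenchymal cells, had no read in any library.

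The antifibrotic list held 22 names, with 14 measured in cats and 15 in dogs. In cats 1 was over 2-fold higher and 5 were over 2-fold lower, with a median of -0.63, against 21% higher, 32.1% lower and a median of -0.34 over all miRNAs. In dogs 3 were higher and 1 was lower, with a median of 0.81, against 47.8% higher, 4.35% lower and a median of 0.95 over all. The counts thus lay near those of all miRNAs in the lower direction. In the higher direction, 1 of 14 in cats and 3 of 15 in dogs were smaller shares than over all miRNAs on this scaling. The lower one in dogs was miR-29a-3p, and the other 14 antifibrotic miRNAs measured in dogs had 0 over 2-fold lower and a median of 0.82. Without miR-29a-3p, the 13 left in cats had 1 over 2-fold higher and 4 lower, with a median of -0.55. The most abundant members are given as normalized values, and as shares of reads the 4 named were lower in KD in both species, with log2 fold changes from -2.08 to -1.17 in cats and from -0.41 to -0.29 in dogs. miR-30a-5p, which restrains the epithelial to mesenchymal transition, had a normalized value of 1379 in KD cats, against 1197 in NR cats (log2 fold change 0.20), and 929 in KD dogs, against 521 in NR dogs (0.83). miR-26a-5p, a podocyte miRNA that limits connective tissue growth factor, had 240 in KD cats, against 391 in NR cats (-0.70), and 519 in KD dogs, against 283 in NR dogs (0.88). miR-30d-5p, of the same family as miR-30a, had 290 in KD cats, against 271 in NR cats (0.10), and 289 in KD dogs, against 165 in NR dogs (0.81). miR-30e-5p had 184 in KD cats, against 269 in NR cats (-0.55), and 191 in KD dogs, against 99.9 in NR dogs (0.93). Both lists were chosen with results of these libraries known, so their counts are a description, and some list members also mark tubule or white blood cells.

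The miRNAs whose levels over the 4 libraries were most like those of the 2 abundant members came largely from the let-7 family and from miR-16. Likeness was the Euclidean distance between log2 normalized levels after each miRNA's own mean was taken off, over 54 other miRNAs, where a smaller number is closer. For miR-21a-5p the nearest were let-7a-5p (0.58), miR-186-5p (0.78) and let-7f-5p (0.78), against a median distance of 1.64. let-7a-5p had 35 reads in KD cats, against 186 in NR cats, and 212 in KD dogs, against 62 in NR dogs, where the KD library was the deeper. On normalized values its log2 fold change was -1.38 in cats and 1.40 in dogs, beside -1.01 and 2.03 for miR-21a-5p. For miR-22-3p the nearest were miR-16-5p (0.33), miR-204-5p (0.57) and let-7a-5p (0.72), against a median of 1.79. miR-16-5p had 14 reads in KD cats, against 140 in NR cats, and 72 in KD dogs, against 25 in NR dogs. miR-204-5p, a tubule miRNA, had 8 in KD cats, against 53 in NR cats, and 40 in KD dogs, against 22 in NR dogs. These are distances over 4 libraries that share their scaling, and the let-7a-5p and miR-16-5p values sum several genomic copies.

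Between the species, both abundant members were higher in NR cats than in NR dogs, and this order was not seen in KD. miR-22-3p had a log2 fold change of 2.81 for NR cats over NR dogs (2.62 to 2.99) on normalized values, and miR-21a-5p of 2.22 (1.99 to 2.45), beside a median of 1.44 over 90 miRNAs, of which 61.1% were over 2-fold higher in cats and 4.44% lower. Both were past the study's cut-offs here, as were 75% of the 24 miRNAs with a value over 150 in the higher direction, against 4.17% in the lower one. Across the 7 scalings the values for NR ran from 1.07 to 2.81 for miR-22-3p and from 0.49 to 2.22 for miR-21a-5p, all above 0. For KD cats over KD dogs, miR-21a-5p had -0.82 (-1.08 to -0.57), where 31.8% of 88 miRNAs were over 2-fold higher and 12.5% lower, and it was below 0 under all 7 scalings. miR-22-3p had -0.02 (-0.28 to 0.23), and the other scalings put it as low as -2.17. The miR-29 sum was 1.39 (0.48 to 2.33) for NR cats over NR dogs on the deposited scaling, at -0.05 relative to the median of all miRNAs. The log2 factor between these 2 pools ran from 0.75 on that scaling to -0.98 on others. Since the sum was not computed under the other scalings between species, no direction is given for it. For KD cats over KD dogs the miR-29 sum was -0.31 (-3.52 to 1.89). Because cat and dog reads were both aligned to the mouse, a base that differs between a species and the mouse would lower a count in that species alone, and its part in these values was not tested.

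**Figure D4:**
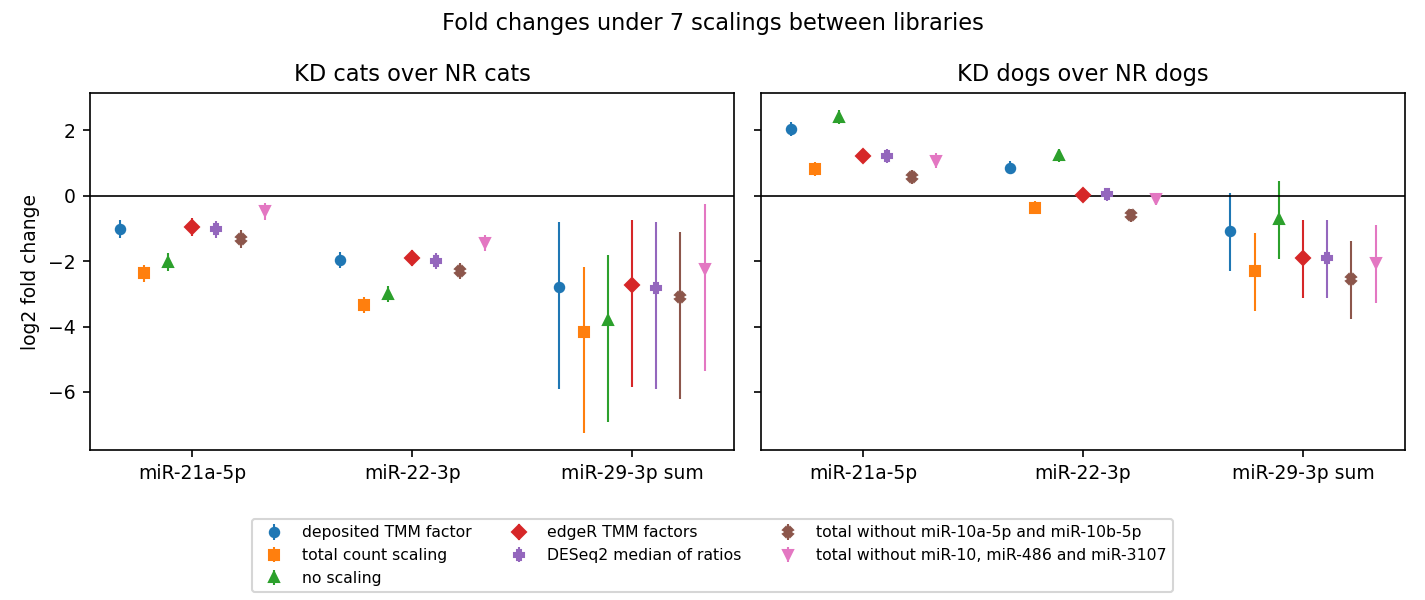
Log2 fold change (vertical axis) of miR-21a-5p, miR-22-3p and the summed miR-29 3p arms under 7 scalings, for KD over NR cats (left) and KD over NR dogs (right), with 95% counting intervals. All points are below 0 in cats; in dogs miR-21a-5p runs from 0.57 to 2.41, miR-22-3p from -0.61 to 1.23 and the miR-29 sum from -2.55 to -0.71.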

How the data were processed

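Small RNA libraries of urinary exosomes were made by the authors from 1 pool of animals per group. By the study's methods and the submitters' processing notes, reads were trimmed, aligned to mouse mm10 by Bowtie 1.0.0 and assigned to mouse small RNA annotation in StrandNGS; the notes also list CASAVA 1.8.2. The deposited table has read counts and log2 values that the authors normalized by TMM, for 2031 entries of 1898 mature names. Within a library the log2 values of entries with reads differ from log2 counts by a constant, and values that would be negative are given as 0, so counts times the library's factor were used as normalized levels. The 4 emptied lines are not analysed here, and the study's criterion of kidney expression was not applied. How reads with several locations were shared among copies is not given in the sources used here.

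Folds, shares and ratios were computed with Python 3.11.15, numpy 2.4.6, scipy 1.17.1 and pandas 2.3.3, drawn with matplotlib 3.10.9, and tested on simulated data. With 0 reads, a limit of 3 reads was used. Scaling alternatives were edgeR 4.0.16 and DESeq2 1.42.0 factors in R 4.3.3, total count, total without the most abundant miRNAs, and none; other cut-offs, pseudocounts, arms and copies were also tried. The miRNAs named were the 7 members, the 3 closest to each member with at least 100 reads, the 4 members of each fibrosis list with most reads, the miR-29 5p arms and let-7b-5p. miR-150-5p, miR-378a-3p, miR-181a-5p, miR-199a and miR-214 were named after their values were seen. The members and lists were chosen with earlier results of these data known.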

Additional observations from a re-analysis of the deposited data

Results flagged for a closer look

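The log2 fold changes of miR-21a-5p and miR-22-3p pointed in opposite directions in the 2 species, and the difference between species was not tested, since each group is 1 library. Dogs minus cats, it was 3.04 for miR-21a-5p (2.03 in dogs and -1.01 in cats) and 2.83 for miR-22-3p (0.86 in dogs and -1.97 in cats). The median of all miRNAs differed by 1.28 in the same direction, which leaves 1.76 for miR-21a-5p and 1.55 for miR-22-3p. Over the 7 scalings the difference ran from 1.55 to 4.44 for miR-21a-5p and from 1.34 to 4.23 for miR-22-3p. For miR-21a-5p the species stayed opposite under each of these scalings, while for miR-22-3p both were lower in KD under 3 of them. For the miR-29 sum, lower in KD in both species, the difference was 1.70, of which 0.41 is left after the shift of all miRNAs.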

How the results depend on the processing

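The ratios of miR-21a-5p to miR-22-3p kept their direction and size with both arms summed. With miR-29c-3p alone below the line, the KD over NR change of the ratio of miR-21a-5p to miR-29 was at least 0.570 in cats, a bound from reading the 0 reads of KD cats as 3 that gives no direction, and 2.65 in dogs (0.238 to 18.6), an interval that holds the value of 8.66 for the sum. By scaling, the log2 fold change of miR-21a-5p in cats was -2.38 (total count), -2.03 (no scaling), -1.33 (total without miR-10a-5p and miR-10b-5p) and -0.48 (total without miR-10, miR-486 and miR-3107), and in dogs it was 0.81, 2.41, 0.57 and 1.07 in the same order, 1.21 with edgeR and 1.22 with DESeq2. For miR-22-3p it was -3.34, -3.00, -2.29 and -1.44 in cats. In dogs miR-22-3p was 1.23 with no scaling, 0.0305 with edgeR and 0.0439 with DESeq2, and it turned to -0.37 with the total count, -0.61 without miR-10a-5p and miR-10b-5p and -0.10 without miR-10, miR-486 and miR-3107. The cause was not tested. Adding 1 or 10 to each value kept these 4 log2 fold changes within their intervals.

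On normalized values, the count past the cut-offs was 4 higher and 8 lower in cats and 8 higher and 0 lower in dogs. These are not the study's own counts, since its folds compare read numbers, as no scaling does here. The count moved by over 1.5 times as follows. In cats it was 2 higher and 16 lower with the total count, 3 higher and 14 lower with no scaling, 7 higher and 4 lower without miR-10, miR-486 and miR-3107, 9 higher at a value over 50 and 4 lower at a fold over 3. In dogs it was 2 higher and 1 lower with the total count and without miR-10a-5p and miR-10b-5p, 19 higher with no scaling, 4 higher with edgeR or DESeq2, 3 higher without miR-10, miR-486 and miR-3107, 15 higher at a value over 50 or a fold over 1.5, and 5 higher at a value over 300 or a fold over 3. With edgeR the split was 5 higher and 6 lower in cats, and miR-21a-5p at -0.95 was no longer past it. Of the fibrosis lists, 1 profibrotic miRNA was over 2-fold higher in cats without the minimum of 10 reads. At a minimum of 50 reads, 0 antifibrotic miRNAs were over 2-fold higher and 1 lower in cats, and 0 were lower in dogs, where miR-29a-3p is then too scarce to be counted. No paired analysis was possible because each group is 1 library. Depth limits miR-29 and the passenger arms most: 3 reads are 0.0126% in KD cats, against 0.0160% in NR cats, and 0.00474% in KD dogs, against 0.0144% in NR dogs.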

Other observations

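The ratio of miR-21a-5p to let-7b-5p, a let-7 member that represses the TGF-β receptor and whose ratio to miR-21a the study used in single cats, was close between KD and NR in these pools. let-7b-5p had 4 reads in KD cats, against 18 in NR cats, and 20 in KD dogs, against 3 in NR dogs. The ratio was 35.8 in KD cats (13.7 to 133), against 32.5 in NR cats (20.4 to 55.2), and 56.0 in KD dogs (36.1 to 92.04), against 70.3 in NR dogs (23.7 to 344). KD over NR, it was 1.10-fold in cats (0.355 to 4.54) and 0.796-fold in dogs (0.150 to 2.72), so counts this low leave room for a change in either direction. By PCR in single cats, the study found this ratio and that of miR-21a to miR-22 to rise with serum creatinine and urea nitrogen. It also found raw miR-22 lower in KD cats, and it reports that its sequencing and PCR results differed.

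The 2 genomic copies of miR-29b-3p have the same mature sequence, and yet their reads were placed on different copies. The copy on chromosome 6 had 3 reads in NR cats and 0 in the other libraries, and the copy on chromosome 1 had 1 read in KD dogs and 0 elsewhere. That single read is written as 0 among the deposited normalized values, as are 31 entries with reads in KD dogs, against 47 in NR dogs, and none in cats.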
